A study of Mus musculus with 9 samples.

Results

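Hox genes were read by 48 probe sets standing for 33 genes, out of 45037 probe sets on the array once its control probe sets were set aside. A member was any probe set that the platform annotation gives to exactly 1 gene whose symbol names a Hox gene of cluster A, B, C or D. The HoxA cluster had 16 probe sets of 9 genes, HoxB 11 of 9, HoxC 11 of 7 and HoxD 10 of 8. By paralog number, 16 probe sets lay in paralogs 1 to 4, 15 in paralogs 5 to 8 and 17 in paralogs 9 to 13. Another 3 probe sets, annotated to several Hox genes each, were left out. The samples were 3 arrays of laser-captured motor neurons from SOD1-mutant mice, 3 of laser-captured motor neurons from wild-type (WT) mice and 3 of whole spinal cord from WT mice. SOD1 encodes a superoxide dismutase, and mutant forms of it underlie a share of familial amyotrophic lateral sclerosis, a fatal loss of motor neurons. The sample labels state neither the SOD1 allele nor strain, age, sex or number of animals, do not explain the code D28 that every title carries, and their source field reads ventral spinal cord even for the cord arrays that are described as total cord. They do not state the level of the cord at which neurons were captured, a point that bears on every Hox value below.

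Hox genes encode homeodomain transcription factors that give cells their position along the head-to-tail axis. They lie in clusters, and their order in a cluster follows the order of their expression along the body: low paralog numbers reach into the hindbrain and neck, middle numbers belong to the brachial and thoracic cord, and high numbers to the lumbar and sacral cord. In developing motor neurons, Hox proteins act with Pbx and Meis cofactors and with Foxp1 to sort neurons into columns and into pools that each serve a muscle.

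Captured cells were checked against marker genes before the Hox genes were read. Of 10 tested probe sets for motor neuron markers such as Isl1 and Mnx1, 9 were higher in WT motor neurons than in WT cord and none was lower (limma, adjusted p under 0.05). The one not called was that of Chat, the enzyme that makes acetylcholine (log2 change 0.62 ± 0.28, SE, adjusted p = 0.0816). It passed as higher in the 2 other scalings used below (1.43 and 1.52). With the deposited scaling, every one of the 12 tested interneuron, 12 oligodendrocyte, 11 microglial and 9 vessel or meninges probe sets was lower, as were 17 of 18 astrocyte ones. After median centring, which sets each array's median to the same value, 9 of the interneuron and 10 of the oligodendrocyte probe sets were lower. Oligodendrocyte genes were nonetheless still read in the captured samples: their summed signal, with the brightest probe set per gene, ran from 166313 to 171883 in mutant motor neurons, from 137287 to 159658 in WT motor neurons and from 411610 to 479276 in cord. The interneuron markers Slc32a1 and Slc6a5 stayed bright too, with mean signals of 8058 and 9901 in WT motor neurons and 13544 and 19762 in cord. Captured RNA was also read mainly near the 3′ end. For the Gapdh control, 3′ signal over 5′ signal on the log2 scale was 4.33 to 4.62 in mutant motor neurons, 3.64 to 4.51 in WT motor neurons and -0.29 to -0.26 in cord. Array medians were 274 to 366 in mutant motor neurons, 269 to 313 in WT motor neurons and 556 to 582 in cord, although the deposited values share a trimmed mean of 2500. The part of this 3′ weighting and of glial and interneuron RNA in the Hox differences against cord was not tested. In whole cord, fewer cells of a type and less RNA per cell cannot be told apart.

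Cord and motor neurons both carried a broad Hox profile. A background level was set for each array at the value that 95% of its 27 probe sets for bacterial transcripts did not exceed. Above it on all 3 arrays were 27 of the 48 probe sets in mutant motor neurons, 27 in WT motor neurons and 36 in cord. On all 9 arrays 25 were above it. They reached from Hoxb2 to the paralog 10 genes Hoxa10, Hoxc10 and Hoxd10 and to Hoxa11, a lumbar gene. On no array were Hoxb1, a hindbrain gene, Hoxb13, Hoxc13 and 1 of 2 probe sets of Hoxd13 above background, the last 3 being genes of the tail end. No probe set was above background on all motor neuron arrays and on no cord array. The reverse held for 3 probe sets, 1 each of Hoxa3, Hoxa4 and Hoxc5. The number above background per array ran from 31 to 33 in mutant motor neurons (64.58 to 68.75%), from 30 to 34 in WT motor neurons (62.50 to 70.83%) and from 37 to 39 in cord (77.08 to 81.25%). Of all probe sets on the array, 59.56 to 61.14%, 62.01 to 66.92% and 70.80 to 73.71% were above background in the same order. The lower detection in motor neurons was therefore shared by the whole array.

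**Figure D1:**
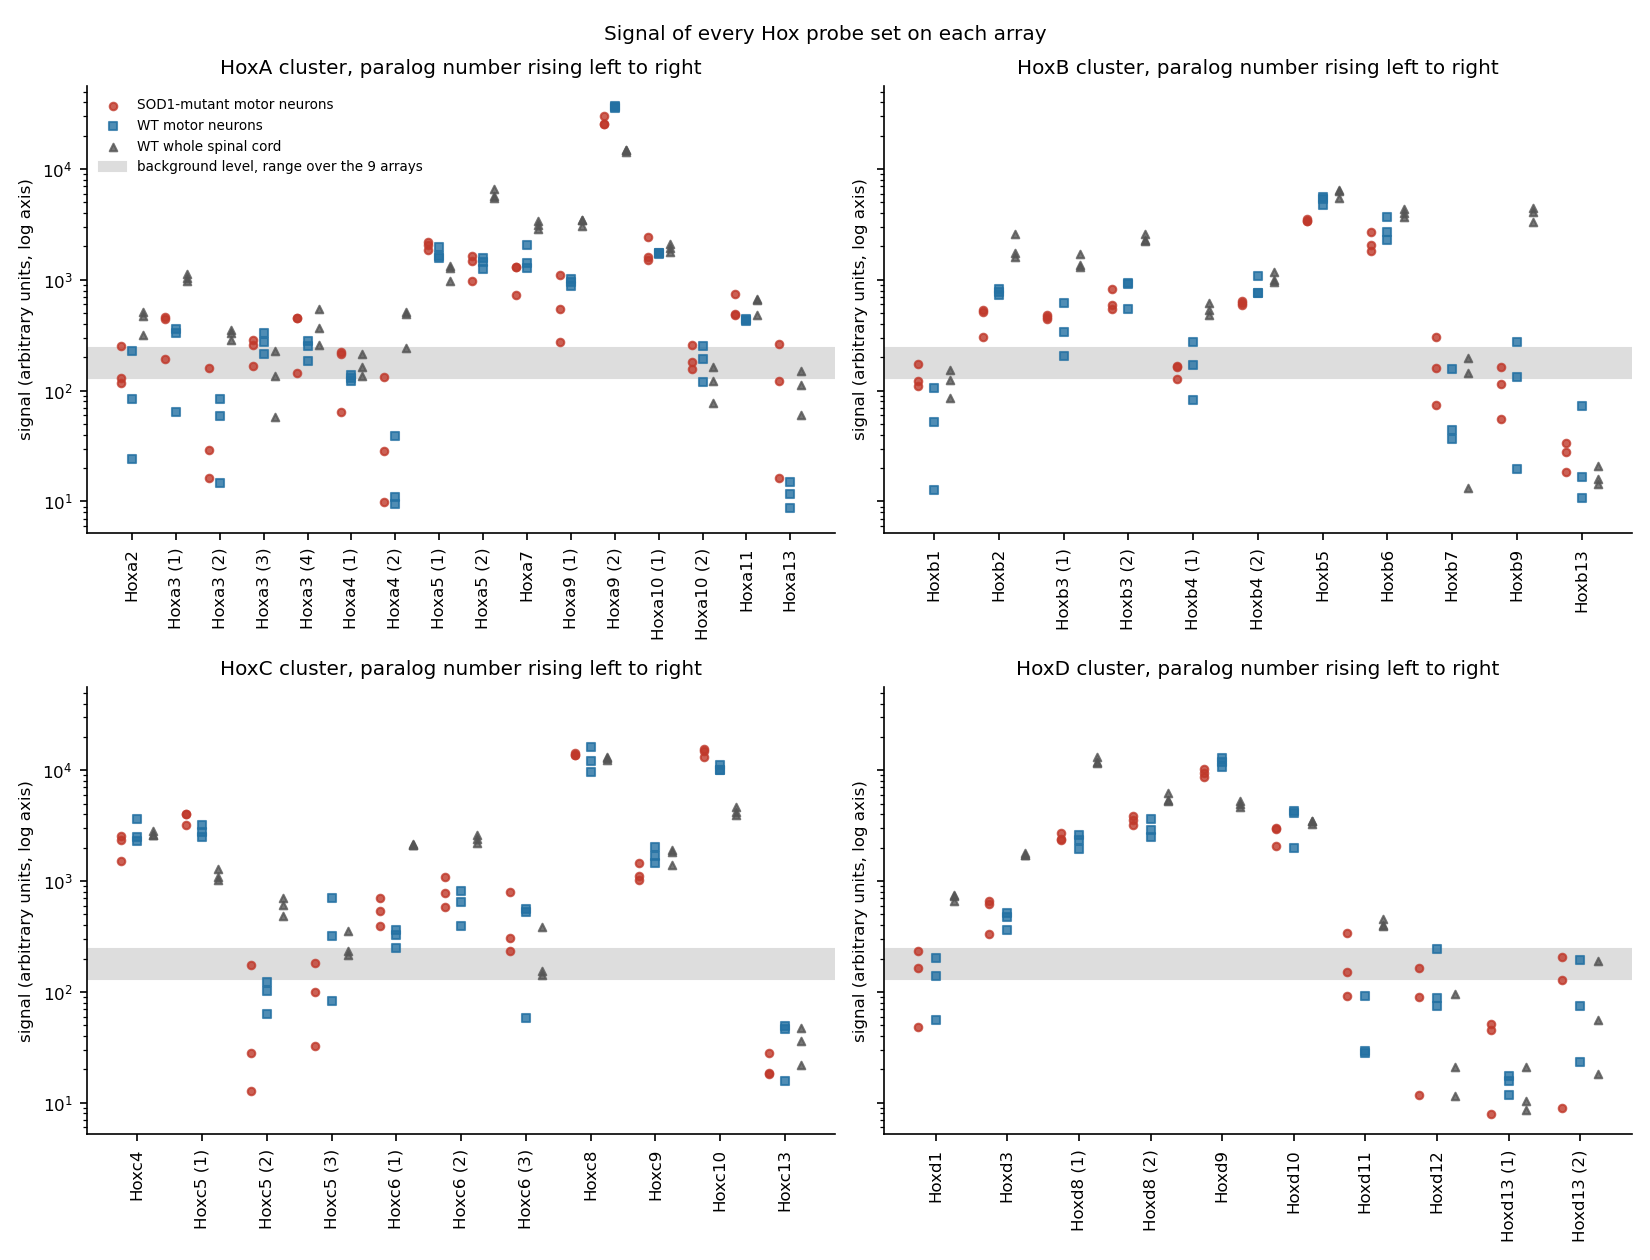
Signal (arbitrary units, log axis) of all 48 Hox probe sets on each of the 9 arrays, by cluster with paralog number rising from left to right; a number in brackets separates probe sets of the same gene. Each point is 1 array, and the grey band is the range of the background level. Hoxb9 lies at or below the band on all but 1 motor neuron array and between 3324 and 4403 on the cord arrays, while Hoxc10 and Hoxd9 lie higher on every motor neuron array than on any cord array.

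A probe set was tested when its mean log2 signal over the 3 groups lay above the 40th percentile of the array, which 33 Hox probe sets did and 15 did not. A probe set dim in both motor neuron groups could pass this filter only when bright in cord. The counts of lower calls against cord include such members. WT motor neurons were first set against WT cord, a comparison of one cell type with the tissue that holds it. Of the 33 tested Hox probe sets 5 (15.2%) were called higher and 16 (48.5%) lower, against 24.0% higher and 41.5% lower among all 27022 probe sets tested (limma, adjusted p under 0.05). Both Hox shares therefore stand near those of the whole array, and the counts say little about Hox genes as a class. What differed was the identity of the members. The higher probe sets were those of Hoxa5 (1 of 2), Hoxa9 (1 of 2), Hoxc5 (1 of 2 tested), Hoxc10 and Hoxd9. The lower ones were those of Hoxa3, Hoxa5, Hoxa7, Hoxa9, Hoxb2, Hoxb3 (2), Hoxb4, Hoxb6, Hoxb9, Hoxc6 (2), Hoxd1, Hoxd3 and Hoxd8 (2). For mutant motor neurons against the same cord arrays, the counts were 5 higher and 18 lower, against 21.9% and 40.2% of all probe sets. That comparison mixes genotype with cell capture and shares the cord arrays with the first, so its values are given beside the others and are not a second, independent result. Arrays of WT motor neurons and cord did not overlap for 5 higher and 17 lower Hox probe sets, against 7145 and 12276 of all 27022. For mutant motor neurons and cord the counts were 6 and 21, against 6784 and 12131. Such separation was therefore common across the array.

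**Figure D2:**
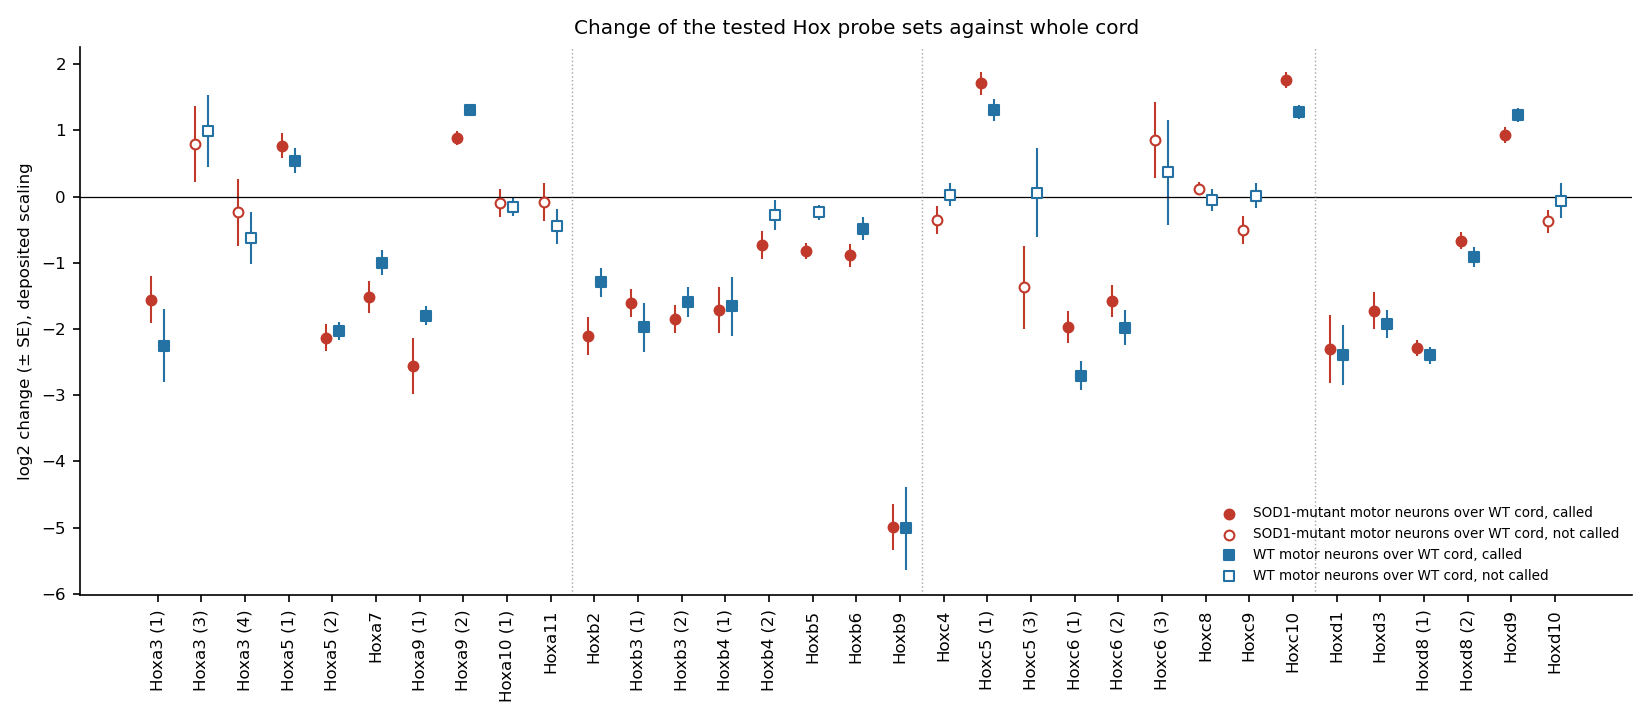
Log2 change (± SE) of the 33 tested Hox probe sets in mutant motor neurons over WT cord (red circles) and in WT motor neurons over WT cord (blue squares), 3 arrays per group, ordered by cluster (dotted lines) and paralog number. Filled symbols passed an adjusted p of 0.05. In both sets Hoxb9 lies near -5 and Hoxc10, Hoxd9, 1 Hoxa9 and 1 Hoxc5 probe set lie above 0.

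Among paralogs 1 to 4, the genes of the hindbrain and neck, 11 of 16 probe sets were tested. In WT motor neurons 0 were called higher than in cord and 7 lower, with a median log2 change of -1.59 against -0.35 for all probe sets tested. These shares were 0.0% and 63.6%, against 24.0% and 41.5% of all probe sets tested. Hoxd1, which in mice shapes pain-sensing neurons of the dorsal root ganglia, had signals of 165, 235 and 48.7 in mutant motor neurons, 55.6, 140 and 202 in WT motor neurons, and 732, 656 and 749 in cord. Hoxd3, a gene of the first neck vertebrae, had 331, 623 and 657 in mutant motor neurons, 511, 363 and 478 in WT motor neurons, and 1703.5, 1717 and 1807 in cord. For both genes each cord array lay above each motor neuron array of either genotype, a separation that was common across the array. The fall in WT motor neurons was 5.25-fold for Hoxd1 (log2 change -2.39 ± 0.45, SE, n = 3 each, limma adjusted p = 0.00149) and 3.78-fold for Hoxd3 (-1.92 ± 0.21, adjusted p = 5.58e-05). Hoxd1 exceeded background on 1 of 3 arrays in each motor neuron group and passed the filter only through its cord signal. Without the filter its adjusted p in WT motor neurons was 0.00269 (limma).

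Hoxb3, a hindbrain and neck gene, was lower by both of its probe sets. The brighter in cord had 551, 595 and 831 in mutant motor neurons, 923, 546 and 929 in WT motor neurons, and 2306.5, 2262 and 2603 in cord. The other gave 479, 445 and 458 in mutant motor neurons, 340, 620 and 205 in WT motor neurons, and 1349, 1317.5 and 1700 in cord. Here too the cord arrays stood apart from all motor neuron arrays, with log2 changes in WT motor neurons of -1.59 ± 0.23 (adjusted p = 3.11e-04) and -1.97 ± 0.37 (adjusted p = 0.00146). Hoxa3, needed for the thymus and parathyroid, was called lower by 1 of 3 tested probe sets (1427433_s_at, log2 change -2.25 ± 0.55, adjusted p = 0.00598), which read 440, 192 and 464 in mutant motor neurons, 64.0, 332 and 358 in WT motor neurons, and 1128, 981 and 1032 in cord. Another Hoxa3 probe set, 1431392_at, was not called with the deposited scaling (0.99 ± 0.54) but passed as higher after quantile normalization (log2 change 1.72) and after median centring (1.90). Hoxb2, a hindbrain gene, and 1 probe set of Hoxb4 were also lower with the deposited scaling (-1.30 ± 0.22 and -1.65 ± 0.45), but neither passed after quantile normalization (adjusted p = 0.0965 and 0.162) or after median centring, in which each array's median is set to the same value (0.170 and 0.173). The Hoxb4 probe set (1451761_at) had 128, 162 and 168.5 in mutant motor neurons, 169.7, 82.7 and 275 in WT motor neurons, and 537, 619.6 and 485 in cord, with 0, 2 and 3 arrays above background. This probe set passed the filter only through its cord signal. Hoxc4, a neck gene, had 2577, 1533 and 2347 in mutant motor neurons, 3616, 2303 and 2497 in WT motor neurons, and 2625, 2856 and 2597 in cord, and the groups overlapped in WT. It had a log2 change of 0.03 (95% interval -0.38 to 0.44), and passed as higher after quantile normalization (0.55) and centring (0.94). Hoxa2 and further probe sets of Hoxa3 and Hoxa4 fell below the filter. The Hoxa4 one (1427354_at) was above background on all 3 cord arrays and on no motor neuron array. Its signal was 28.4, 133 and 9.9 in mutant motor neurons and 38.6, 10.96 and 9.52 in WT motor neurons, against 488, 240 and 512 in cord. That makes it at least 1.97-fold lower in mutant motor neurons and at least 2.59-fold lower in WT motor neurons.

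Paralogs 5 to 8 hold the genes of the brachial cord and of the motor neurons that drive the diaphragm. Of 13 tested probe sets, 2 were called higher in WT motor neurons than in cord and 7 lower. These shares, 15.4% and 53.8%, stand near the 24.0% and 41.5% of all probe sets tested. Hoxc5, which with Hoxa5 sets up the phrenic motor neurons of mice, was read differently by its probe sets. The brightest (1439885_at) had 4056, 4055 and 3182 in mutant motor neurons, 3209, 2795 and 2498 in WT motor neurons, and 1284, 1014 and 1098 in cord. On it every motor neuron array exceeded every cord array, 2.48-fold for WT motor neurons (log2 change 1.31 ± 0.16, adjusted p = 1.38e-04). Another (1450832_at) had 12.8, 175.0 and 28.2 in mutant motor neurons, 101.8, 123 and 62.6 in WT motor neurons, and 703, 611 and 480.2 in cord. It lay below the filter and was seen on all cord arrays and on no motor neuron array, at least 2.92-fold lower in mutant motor neurons and at least 3.84-fold lower in WT motor neurons. The remaining tested one (1456301_at) had 100.8, 32.6 and 183 in mutant motor neurons, 697, 322 and 82.1 in WT motor neurons, and 215, 357 and 232 in cord, and was not called.

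Hoxa5 also split. Probe set 1443803_x_at had 1871.5, 2200 and 2045 in mutant motor neurons, 1582, 1993 and 1647 in WT motor neurons, and 972, 1283 and 1328.5 in cord. Probe set 1448926_at had 970, 1629 and 1491 in mutant motor neurons, 1255.5, 1583.5 and 1453.5 in WT motor neurons, and 5690.3, 6556 and 5464.5 in cord. The first was higher in WT motor neurons (1.46-fold, log2 change 0.54 ± 0.19, adjusted p = 0.0314) and the second lower (4.09-fold, -2.03 ± 0.14, adjusted p = 3.65e-06). The rise no longer passed when any 1 of 4 arrays was left out (WT cord replicate 1 or 2, or WT motor neuron replicate 2 or 3), with adjusted p of 0.115, 0.0508, 0.0687 and 0.0589. A suffix of x in a probe set name marks probes that can bind other transcripts.

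Hoxc6, a gene of the brachial cord where limb motor neurons form, was lower by 2 of 3 probe sets. Probe set 1427361_at read 699.8, 389.9 and 538 in mutant motor neurons, 252, 358.5 and 328 in WT motor neurons, and 2117, 2164 and 2102 in cord. Its WT motor neuron arrays lay 6.51-fold below the cord arrays (log2 change -2.70 ± 0.21, adjusted p = 8.40e-06). The second (1427362_x_at) read 786, 1087 and 585 in mutant motor neurons, 396, 651 and 814 in WT motor neurons, and 2226, 2416 and 2582.5 in cord (log2 change -1.98 ± 0.26, adjusted p = 1.82e-04). The remaining one (1427454_at) read 308, 798 and 232 in mutant motor neurons, 58.5, 555 and 523 in WT motor neurons, and 142, 154 and 382 in cord, overlapped and was not called. Hoxc8, which in mice and chicks directs brachial motor pools to their muscles, had 14203, 13872.5 and 13831 in mutant motor neurons, 9648, 16059.5 and 12212 in WT motor neurons, and 12841, 12499 and 13197 in cord. The WT motor neuron and cord arrays overlapped, and the 95% interval of their log2 change was -0.43 to 0.32, though after centring Hoxc8 passed as higher (0.85). Each mutant array exceeded each cord array, but the change was small and not called (0.12 ± 0.09). Hoxd8, a gene of the trunk, had 2694.5, 2374 and 2392 in mutant motor neurons, 2632.5, 1959 and 2334.5 in WT motor neurons, and 11971, 13055 and 11525 in cord by 1431099_at. By 1433638_s_at it had 3867, 3199 and 3557 in mutant motor neurons, 2867, 3667 and 2490.2 in WT motor neurons, and 5291.5, 5349 and 6207 in cord. On both, every cord array exceeded every motor neuron array. Hoxd8 fell 5.27-fold by 1 probe set (1431099_at, log2 change -2.40 ± 0.13, adjusted p = 1.02e-06) and 1.88-fold by the other (-0.91 ± 0.16, adjusted p = 8.77e-04). Hoxb5, a brachial gene, was not called (-0.24, interval -0.49 to 0.02), and passed as higher after centring (0.67). Hoxb6 had 2686, 1801 and 2062 in mutant motor neurons, 2708, 3697 and 2303 in WT motor neurons, and 3657, 4347 and 3995.5 in cord, with a slight overlap in WT. It passed narrowly (-0.48 ± 0.18, adjusted p = 0.0394) and no longer did so without any 1 of 5 of the 6 arrays, all but WT motor neuron replicate 2 (adjusted p = 0.0567 to 0.139). Hoxa7, a thoracic gene, was 2.0-fold lower (-0.998 ± 0.19, adjusted p = 0.00175), with adjusted p of 0.0676 after quantile normalization and 0.676 after median centring.

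Paralogs 9 to 13 hold the genes of the thoracic, lumbar and sacral cord. Of 9 tested probe sets, 3 were called higher in WT motor neurons than in cord and 2 lower. These shares were 33.3% and 22.2%, against 24.0% and 41.5% of all probe sets tested. Hoxc10, a gene that in mice and chicks assigns motor neurons to the lumbar limb column, had 15548, 13055 and 14974 in mutant motor neurons, 10041, 11068 and 10020.4 in WT motor neurons, and 3965, 4643 and 4203 in cord. Hoxd9, expressed in the lumbar cord, had 9486, 8632 and 10362 in mutant motor neurons, 12784, 10641 and 11826 in WT motor neurons, and 4938, 5321.5 and 4670.5 in cord. On both, each of the 6 motor neuron arrays exceeded each cord array. Hoxc10 was 2.43-fold higher in WT motor neurons (log2 change 1.28 ± 0.10, adjusted p = 8.47e-06) and Hoxd9 2.35-fold (1.23 ± 0.10, adjusted p = 1.20e-05). In mutant motor neurons against cord the values were 3.39-fold (1.76 ± 0.12) and 1.90-fold (0.93 ± 0.12).

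Hoxa9, a thoracic and lumbar gene also known from leukaemia, split as Hoxa5 did. Probe set 1455626_at had 25258, 30164 and 25511 in mutant motor neurons, 35379.5, 36767 and 36026 in WT motor neurons, and 14155, 14852 and 14785.5 in cord. Probe set 1421579_at had 544, 1106.5 and 273 in mutant motor neurons, 879, 957 and 1008 in WT motor neurons, and 3459.5, 3494 and 3088 in cord. The first was 2.47-fold higher in WT motor neurons (log2 change 1.30 ± 0.07, adjusted p = 9.31e-07) and the second 3.48-fold lower (-1.80 ± 0.14, adjusted p = 8.89e-06). Hoxb9, a thoracic gene, showed the widest gap to cord of all tested Hox probe sets in both genotypes. It had 55.5, 115 and 162 in mutant motor neurons and 19.6, 132 and 276 in WT motor neurons, against 3324, 4085 and 4403 in cord. None of the mutant arrays and 1 WT motor neuron array exceeded background. It was at least 18.8-fold lower in mutant motor neurons (log2 change -4.99 ± 0.35, adjusted p = 8.32e-06) and lower in WT motor neurons (-5.01 ± 0.63, adjusted p = 1.29e-04), where the size rests on 2 arrays below background and is not exact. Hoxb9 passed the filter only through its cord signal. Without the filter its adjusted p was 6.55e-06 in mutant and 1.37e-04 in WT motor neurons (limma).

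The remaining posterior genes were not called with the deposited scaling. Hoxc9, which in mice sets the thoracic identity of motor neurons, had a log2 change of 0.01 (interval -0.41 to 0.44), Hoxa10 -0.16 (-0.48 to 0.16), Hoxd10 -0.06 (-0.67 to 0.55) and Hoxa11 -0.45 (-1.05 to 0.15). These 4 probe sets were above background on every array. Hoxc9 had 1021, 1121 and 1463 in mutant motor neurons, 1470.4, 2020.2 and 1701 in WT motor neurons, and 1898, 1412 and 1829.7 in cord. Hoxa10 (1431475_a_at) had 1608.5, 2420.2 and 1510.6 in mutant motor neurons, 1733, 1733 and 1723 in WT motor neurons, and 1783, 1919 and 2114 in cord. Of the 2, Hoxc9 overlapped between WT motor neurons and cord and Hoxa10 did not. Hoxd10 had 2068, 3011 and 2929 in mutant motor neurons, 4256, 1990.1 and 4134 in WT motor neurons, and 3483, 3291 and 3470.2 in cord. Hoxa11 had 486, 747 and 494 in mutant motor neurons, 425, 444 and 434 in WT motor neurons, and 677, 482 and 661 in cord, all WT motor neuron arrays being lower than the cord arrays. The second Hoxa10 probe set (1446408_at) was dim, with 181, 258 and 155 in mutant motor neurons, 192, 252 and 119 in WT motor neurons, and 77.8, 164.5 and 123 in cord, and 2, 2 and 0 arrays above background. Hoxc9 and Hoxa10 passed as higher after quantile normalization (0.74 and 0.53), and so did Hoxc9, Hoxa10 and Hoxd10 after centring (0.92, 0.75 and 0.85). Hoxd11, a lumbar gene, was dim: 91.4, 342 and 151 in mutant motor neurons, 91.3, 28.1 and 29.5 in WT motor neurons, and 398.4, 453.9 and 391.6 in cord, with 1, 0 and 3 arrays above background. Paralogs 12 and 13 had 6 probe sets, none of which passed the filter. Across all 48 probe sets the log2 change in WT motor neurons over cord and the paralog number had a Pearson r of 0.30 and a Spearman rho of 0.37. In mutant motor neurons over the same cord arrays these were 0.34 and 0.39. Among the 33 tested probe sets alone they were smaller, 0.20 and 0.26 in WT motor neurons and 0.20 and 0.32 in mutant ones. This is a description only, since the probe sets share arrays and several belong to the same gene.

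Hoxd8 and Hoxd9 are neighbours in the HoxD cluster and Hoxa9 is a paralog of Hoxd9, so their promoters are shown for reference. Sequences are those of RefSeq on GRCm38.p6, 250 bases up to the transcription start, 5′ to 3′ on the strand of the gene. Hoxa9 is at chr6:52227371-52227620 on the minus strand, Hoxd9 at chr2:74697513-74697762 and Hoxd8 at chr2:74704365-74704614, both on the plus strand. Capitals mark matches to a searched motif on either strand.
Hoxa9: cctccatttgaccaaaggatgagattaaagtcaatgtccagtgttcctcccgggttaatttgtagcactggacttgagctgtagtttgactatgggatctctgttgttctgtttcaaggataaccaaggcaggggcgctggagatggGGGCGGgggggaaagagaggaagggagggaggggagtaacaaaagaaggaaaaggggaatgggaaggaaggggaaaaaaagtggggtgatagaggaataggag
Hoxd9: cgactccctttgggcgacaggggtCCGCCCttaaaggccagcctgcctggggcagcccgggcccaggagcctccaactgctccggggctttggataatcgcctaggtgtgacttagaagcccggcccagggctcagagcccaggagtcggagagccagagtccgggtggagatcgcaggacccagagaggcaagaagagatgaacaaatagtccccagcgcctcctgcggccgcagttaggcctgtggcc
Hoxd8: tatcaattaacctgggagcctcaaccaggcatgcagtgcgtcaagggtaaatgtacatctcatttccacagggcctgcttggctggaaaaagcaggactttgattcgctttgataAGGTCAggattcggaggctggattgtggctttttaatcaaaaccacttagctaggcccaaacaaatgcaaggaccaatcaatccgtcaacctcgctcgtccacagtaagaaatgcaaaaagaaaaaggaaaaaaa
The motifs searched were TAATTA (a homeodomain core, held by 4.84% of all 32851 promoters of this length), TTTATG (a caudal and posterior Hox core, 10.8%), TGATNNAT (a joint Pbx and Hox core, 7.68%), AGGTCA (a nuclear receptor half-site, 14.0%), GGGCGG (a GC box, 32.7%) and TATAAA (the TATA box, 12.4%). The windows of Hoxa9 and Hoxd9 held 1 GC box each, and that of Hoxd8 held 1 half-site and no GC box. RefSeq gave 21 such windows for 19 of the 33 genes, and 8 of them held a GC box. Such matches are a description of the letters and do not show binding.

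The opposite movement of those neighbours can be read within an array, free of scaling between arrays. The ratios were chosen after the values were seen. The log2 ratio of Hoxd9 over Hoxd8 (1431099_at) signal was 1.81, 1.85 and 2.11 in mutant motor neurons, 2.27, 2.43 and 2.33 in WT motor neurons, and -1.27, -1.29 and -1.30 in cord. The ratio of Hoxc10 over Hoxc9 was 3.90, 3.52 and 3.34 in mutant motor neurons, 2.75, 2.44 and 2.54 in WT motor neurons, and 1.05, 1.70 and 1.19 in cord. In both, the motor neuron arrays stood above the cord arrays without overlap. For Hoxd9 over Hoxd8 this follows from the values above, as Hoxd9 was higher and Hoxd8 lower on every motor neuron array. Hoxc10 was also already higher on every motor neuron array. The ratios therefore restate those values and are not a separate result. Of 6 ratios computed, Hoxc10 over Hoxb5 and Hoxa9 (1455626_at) over Hoxa7 also stood higher in motor neurons (means 2.06 and 4.61 in mutant motor neurons, 0.99 and 4.52 in WT motor neurons, -0.52 and 2.21 in cord). The direction for Hoxa9 depends on that probe set. Hoxa9 1421579_at fell further against cord than Hoxa7 did. Their log2 changes were -1.80 and -0.998 in WT motor neurons and -2.56 and -1.52 in mutant ones. Its ratio to Hoxa7 was not computed. Hoxd10 over Hoxd9 stood lower (means -1.84 in mutant motor neurons, -1.83 in WT motor neurons and -0.54 in cord). Hoxc9 over Hoxc8 averaged -3.53 ± 0.28 in mutant motor neurons, -2.84 ± 0.14 in WT motor neurons and -2.90 ± 0.20 in cord (SD, n = 3 each), with WT motor neurons and cord overlapping. The level of such a ratio has no meaning of its own, as probe sets differ in brightness. The part of the 3′ weighting of captured RNA in the differences between motor neurons and cord was not tested.

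By cluster, HoxB had no probe set called higher in WT motor neurons with the deposited scaling and 6 of 8 lower (median log2 change -1.45), but Hoxb5 and 1 Hoxb4 probe set passed as higher after centring (0.67 and 0.63), the Hoxb4 one also after quantile normalization (0.62). HoxC had 2 higher and 2 lower of 9 (median 0.03), HoxA 2 higher and 4 lower of 10 (median -0.54), and HoxD 1 higher and 4 lower of 6 (median -1.42). In mutant motor neurons all 8 HoxB probe sets tested were lower than in cord with the deposited scaling, and 4 of them in all 3 scalings. With the deposited scaling 40.2% of all tested probe sets were lower there. Those added to the WT ones were Hoxb5 (3411, 3555 and 3419 in mutant motor neurons and 5525, 6504 and 6393 in cord, log2 change -0.82 ± 0.12, adjusted p = 4.59e-04) and the second probe set of Hoxb4 (-0.73 ± 0.21, adjusted p = 0.0142). Whether HoxB differs from the other clusters was not tested.

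Scaling decides part of these directions. Over all tested probe sets, the middle log2 change of WT motor neurons over cord was -0.35 with the deposited scaling, 0.13 after quantile normalization and 0.56 after median centring. All 5 higher Hox probe sets and 11 of the 16 lower ones kept their call in all 3 scalings. The 5 that did not were those of Hoxa7, Hoxb2, Hoxb4, Hoxb6 and the second of Hoxd8 (1433638_s_at). Hoxb6 changed sign after centring (0.42), as did Hoxb5 (0.03) and that Hoxd8 probe set (0.18) in mutant motor neurons over cord. There Hoxb4 1460379_at changed sign under both other scalings (0.17 quantile, 0.12 centred). Conversely, the number of Hox probe sets called higher was 10 after quantile normalization and 13 after centring. Across the array the split of calls was 6494 higher and 11206 lower with the deposited scaling, 9647 and 7693 after quantile normalization, and 12942 and 5269 after centring. For mutant motor neurons over cord it was 5925 and 10859, 8997 and 7371, and 11599 and 5158 in the same order.

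**Figure D3:**
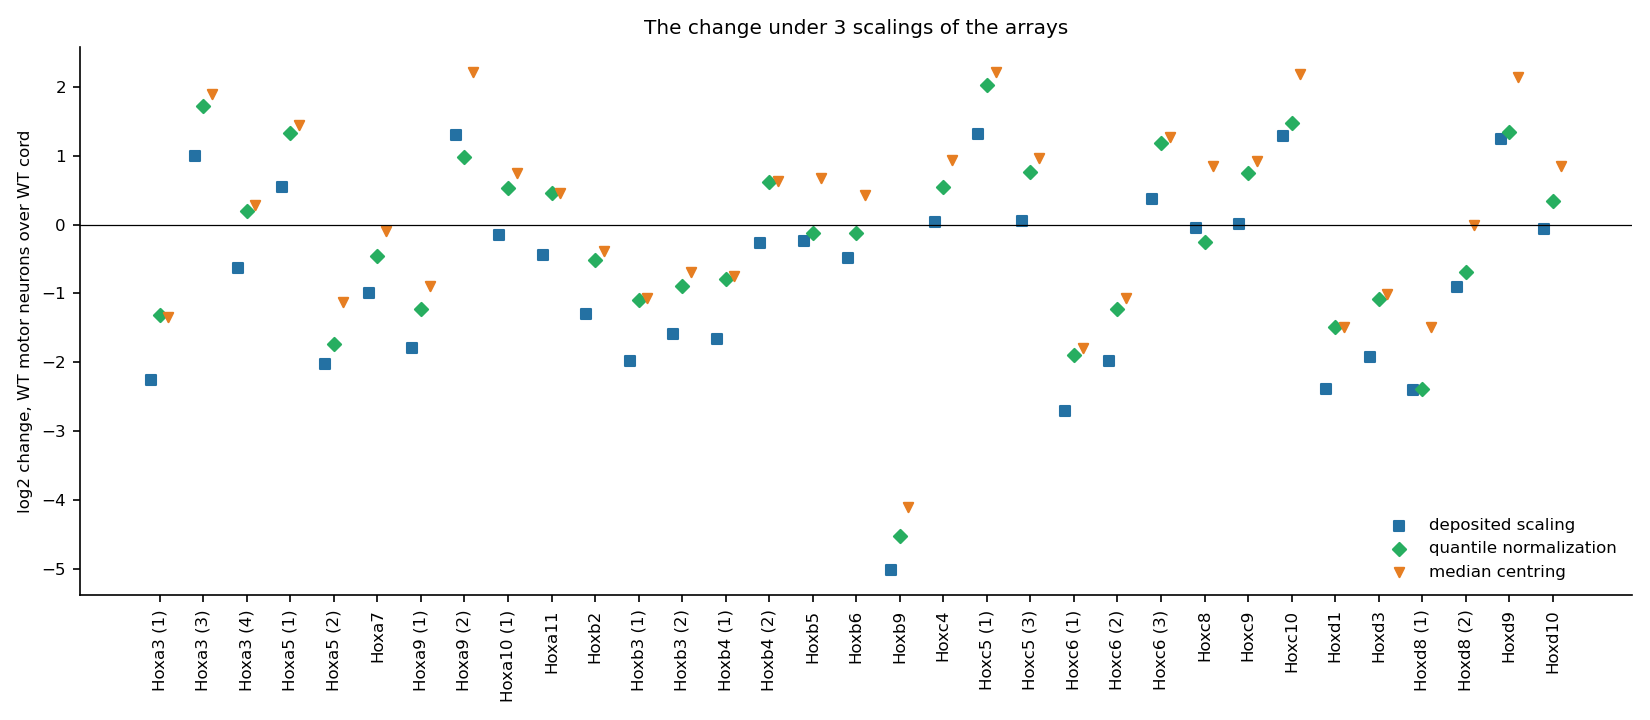
Log2 change of the 33 tested Hox probe sets in WT motor neurons over WT cord with the deposited scaling (squares), quantile normalization (diamonds) and median centring (triangles). Hoxb9 runs from -5.01 to -4.11, Hoxc10 from 1.28 to 2.19, and Hoxb6 crosses 0.

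Probe sets of the same gene often disagreed. Of the 33 genes, 11 had more than 1 probe set and 8 had more than 1 tested. In WT motor neurons over cord, 5 genes had 2 or more called probe sets, and in Hoxa5 and Hoxa9 the calls were opposite, in mutant motor neurons as well. Hoxb3, Hoxc6 and Hoxd8 had calls in 1 direction. Of the 5 probe sets called higher, those of Hoxa5, Hoxa9 and Hoxc5 have no accession in the platform annotation, which gives one for 41 of the 48, so the part of the transcript they read is not stated there. Those of Hoxc10 and Hoxd9 have one and are the only tested probe sets of their genes. Probe positions along the transcripts were not used here, and the part of the 3′ weighting of captured RNA in this disagreement was not tested.

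**Figure D4:**
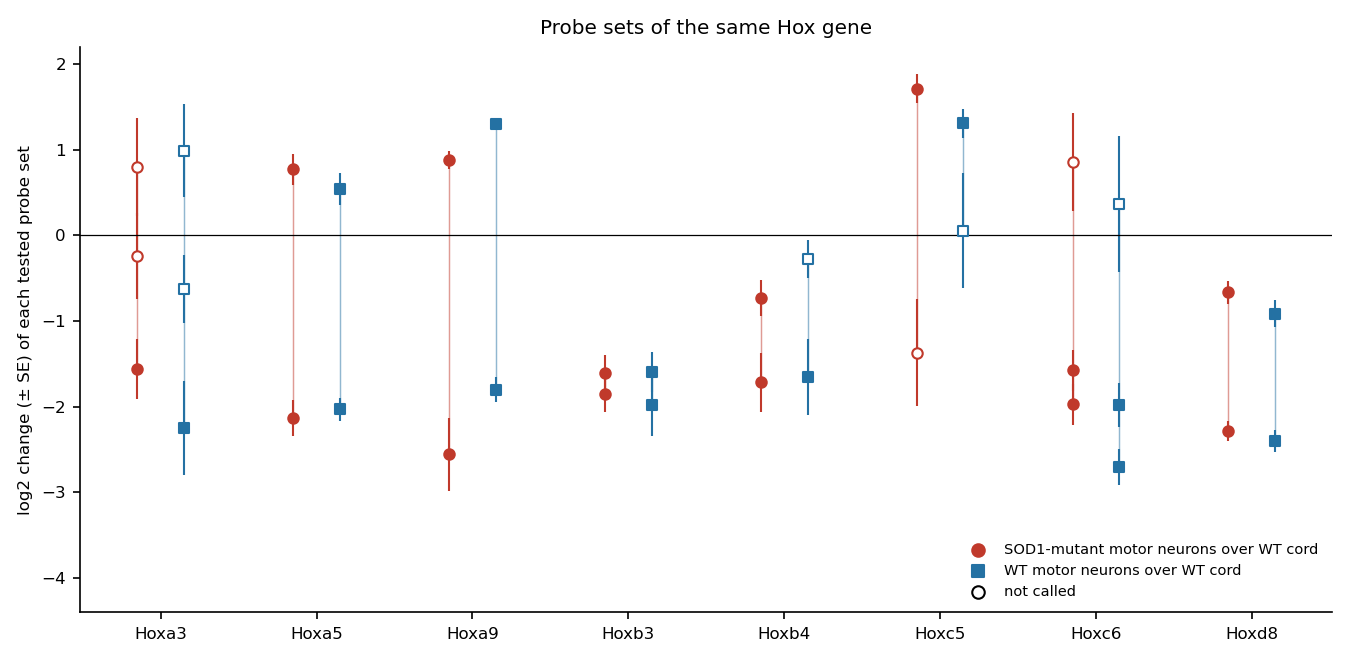
Log2 change (± SE) of each tested probe set for the 8 Hox genes with more than 1, in mutant motor neurons over WT cord (red circles) and in WT motor neurons over WT cord (blue squares); thin lines join probe sets of a gene, and open symbols did not pass. Probe sets of Hoxa5 and Hoxa9 lie on both sides of 0 with filled symbols, and those of Hoxb3 and Hoxd8 lie below 0.

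Mutant motor neurons were then set against WT motor neurons, which asks what the SOD1 mutation does to these cells. No Hox probe set was called: 0 of 33 higher and 0 of 33 lower, against 0.152% higher and 0.0703% lower among all probe sets tested, or 41 and 19 of 27022 (limma, adjusted p under 0.05). At an unadjusted p under 0.05, 1 Hox probe set was higher and 3 were lower, against 7.11% and 8.13% of all tested probe sets. The median log2 change of the 33 was 0.02, against -0.01 for all tested. Arrays of the 2 genotypes did not overlap for 3 higher probe sets (Hoxa11, Hoxc6 and Hoxc10) and 6 lower ones (Hoxa9, Hoxb2, Hoxb4, Hoxb5, Hoxc9 and Hoxd9), where 10.5% and 11.7% of all tested probe sets did the same. Whether these counts differ from those of the whole array was not tested.

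Hoxc10 had the smallest adjusted p among the higher ones. Its 15548, 13055 and 14974 in mutant motor neurons stood above the 10041, 11068 and 10020.4 in WT motor neurons, a 1.40-fold difference (log2 change 0.48 ± 0.14, 95% interval 0.17 to 0.79, adjusted p = 0.159). Hoxb5 had 3411, 3555 and 3419 in mutant motor neurons against 4727, 5583 and 5318 in WT motor neurons (log2 change -0.58 ± 0.16, interval -0.94 to -0.22, adjusted p = 0.150). The bright Hoxa9 probe set had 25258, 30164 and 25511 in mutant motor neurons against 35379.5, 36767 and 36026 in WT motor neurons (-0.42 ± 0.12, interval -0.70 to -0.15, adjusted p = 0.162). Hoxb2 had 511, 532 and 302 in mutant motor neurons against 782, 735 and 819 in WT motor neurons, while cord had 1732, 2613 and 1613 (mutant over WT motor neurons -0.81 ± 0.33, adjusted p = 0.281). None of these passed, and all 4 are given as values. In a fit of all 9 arrays together, which estimates the spread also from the cord arrays, Hoxc10, Hoxb5 and Hoxa9 did pass (adjusted p = 0.0441, 0.0315 and 0.0382). Calls rose across the whole array in that fit, to 572 higher and 612 lower of 27022, against 41 and 19. The astrocyte markers moved with genotype: their summed signal was 44499 to 51809 in mutant motor neurons and 18252 to 25675 in WT motor neurons, with 2 of 18 tested probe sets, both of the gap junction gene Gja1, called higher (1 after centring). Summed microglial signal was 4614 to 5170 in mutant motor neurons and 2915 to 3571 in WT motor neurons, with 0 of 11 probe sets called and Aif1 above background on no motor neuron array. All 6 astrocyte genes in mutant motor neurons and 5 of 6 in WT motor neurons were above background on every array. The part of these glial levels in the Hox values was not tested.

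The 2 widest intervals among probe sets above background on all 9 arrays show what could have been missed. For Hoxa9 (1421579_at) the log2 change was -0.76 with an interval of -1.72 to 0.20, and for Hoxb3 (1427605_at) 0.37 with -0.59 to 1.32. For Hoxc8 the interval was -0.23 to 0.58 and for Hoxd9 -0.63 to 0.02. In simulated arrays with the spread of this comparison, a log2 change of 1 was called for 24% of the probe sets given it, and a log2 change of 2 for 73%. The small number of calls therefore does not show that Hox levels were alike in the 2 genotypes.

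**Figure D5:**
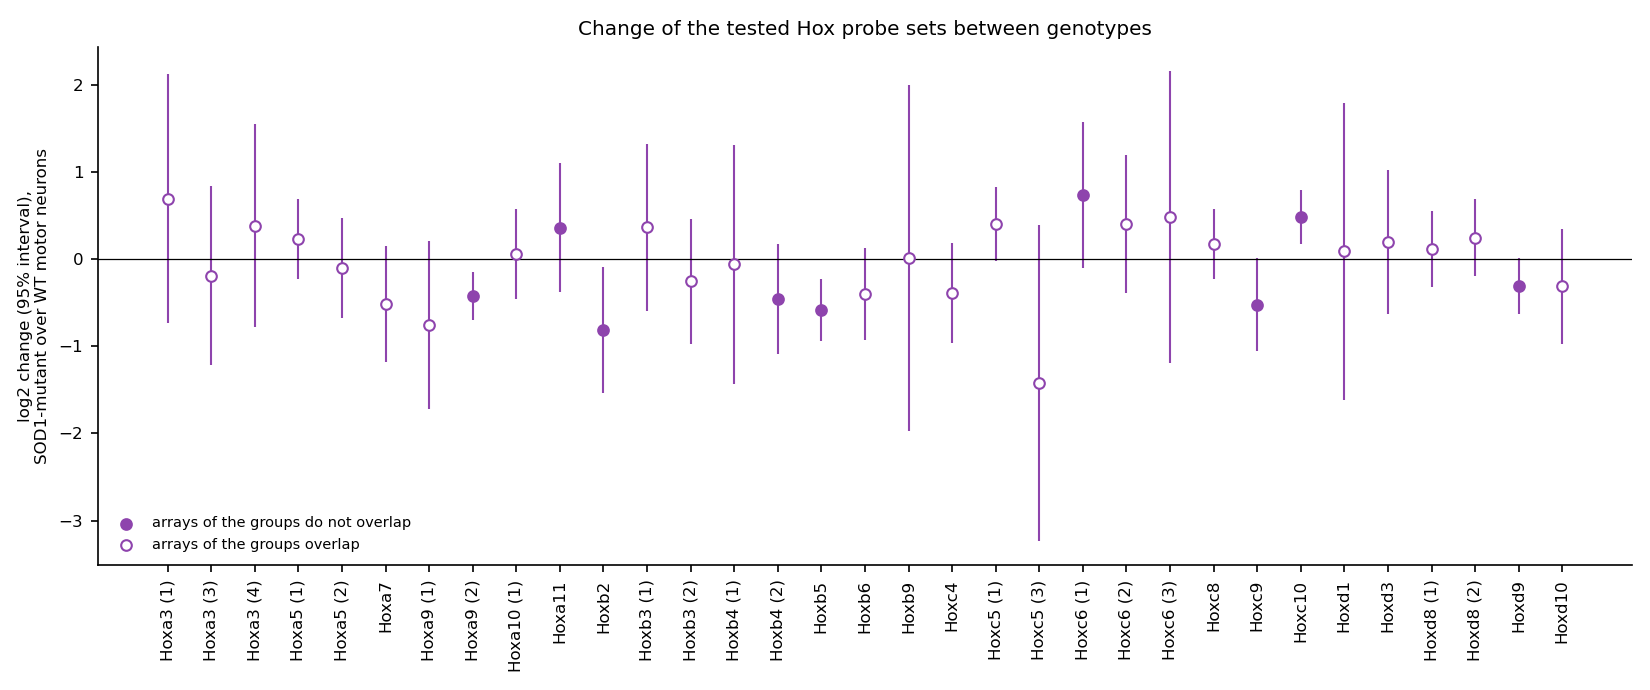
Log2 change in mutant over WT motor neurons of the 33 tested Hox probe sets with the 95% interval, 3 arrays per group. Filled symbols mark the 9 probe sets whose arrays do not overlap between genotypes; the intervals of Hoxc10, Hoxb5, Hoxb2 and 1 Hoxa9 probe set exclude 0, and none passed after adjustment over all probe sets.

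Genes that work with or control Hox genes were read from 5 lists, whose counts stand against 24.0% higher and 41.5% lower of all tested probe sets with the deposited scaling. Across the array the higher calls outnumbered the lower ones in both other scalings, as given above. Of 17 tested probe sets of Hox cofactors, 2 were higher and 9 lower in WT motor neurons than in cord. The counts were 5 and 3 after quantile normalization and 7 and 2 after centring. Pbx3, a homeodomain partner of Hox proteins, was higher by 1447640_s_at (log2 change 0.71 ± 0.10, adjusted p = 2.39e-04) and lower by its other tested probe set (-0.72 ± 0.13, adjusted p = 0.00100), whose fall did not pass in the other 2 scalings. Pknox2, a related factor named after its value was seen as the remaining higher member, was higher too (0.58 ± 0.13, adjusted p = 0.00395), with a value of -0.81 ± 0.23 in mutant motor neurons over cord that did not pass in the other scalings (-0.10 and 0.03). Pknox1 was lower by 3 probe sets, of which 1421233_at read 6.44, 274 and 55.8 in mutant motor neurons, 58.1, 49.2 and 112 in WT motor neurons, and 1679.5, 1175 and 1158.5 in cord. It was at least 8.4-fold lower in WT motor neurons. Of the other 2, 1450172_at also passed in all 3 scalings, and 1437470_at (-1.26) did not pass after quantile normalization (-0.50) or centring (-0.35). Meis3, another cofactor, was 2.48-fold lower (log2 change -1.31 ± 0.21, adjusted p = 5.12e-04), which did not pass after quantile normalization or centring (adjusted p = 0.107 and 0.129).

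The list of motor column and pool factors had 7 higher and 10 lower of 27 tested probe sets (10 and 7 after quantile normalization, 11 and 6 after centring). Mnx1, a factor of motor neuron identity, had 7258, 3482 and 4641 in mutant motor neurons, 5978.5, 7154 and 7513 in WT motor neurons, and 305.5, 296.5 and 254 in cord. Lhx4, a factor of medial motor neurons, was 7.23-fold higher in WT motor neurons (log2 change 2.85 ± 0.19, adjusted p = 3.01e-06) and Isl1 12.5-fold (3.64 ± 0.30, adjusted p = 1.00e-05). Foxp1, which Hox proteins need to form the limb motor column, was called in both directions, lower by 4 and higher by 2 of 7 tested probe sets. The lowest, 1421141_a_at, had a log2 change of -3.82 ± 0.29 (adjusted p = 6.30e-06) with 1 of 3 WT motor neuron arrays above background, while 1435222_at was 1.47-fold higher (0.56 ± 0.10, adjusted p = 0.00143) in all 3 scalings. In mutant motor neurons against WT motor neurons, none of the 7 Foxp1 probe sets passed, and their log2 changes ran from -1.01 ± 0.39 (unadjusted p = 0.0263) to 0.59 ± 0.57.

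Of 6 tested probe sets of genes that switch Hox clusters on in the embryo, with retinoid genes, 0 were higher and 3 lower in WT motor neurons than in cord (2 and 2 in each of the other scalings). Aldh1a2, the enzyme that makes retinoic acid, had 282, 451 and 206 in mutant motor neurons, 312, 311 and 249.5 in WT motor neurons, and 2251, 1531 and 2350 in cord (6.55-fold lower in WT motor neurons, log2 change -2.71 ± 0.25, adjusted p = 1.88e-05). Rarb, a retinoic acid receptor, was 4.98-fold lower (-2.32 ± 0.30, adjusted p = 1.53e-04). Gdf11, a signal for posterior Hox genes, was 2.82-fold lower (-1.49 ± 0.48, adjusted p = 0.0220), which did not pass in the other scalings. Polycomb and Trithorax regulators, which keep Hox clusters silent or open, had 4 higher and 21 lower of 32 (6 and 18 after quantile normalization, 9 and 10 after centring). Kmt2a, a Trithorax methyltransferase, was 6.15-fold lower (-2.62 ± 0.32, adjusted p = 1.20e-04), with 434, 339 and 375 in mutant motor neurons, 439, 1164 and 1036 in WT motor neurons, and 5221, 4722 and 5350 in cord. Suz12, a Polycomb subunit, was called in both directions, 8.35-fold lower by 1452364_at, with 2 of 3 WT motor neuron arrays above background (-3.06 ± 0.35, adjusted p = 7.82e-05) and 2.34-fold higher by 1420021_s_at (1.23 ± 0.12, adjusted p = 3.01e-05).

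Genes beside the clusters, with other cluster transcripts, had 4 higher and 5 lower of 10 tested probe sets (4 and 4 after quantile normalization, 5 and 2 after centring). Skap2, next to HoxA, and Lnpk, next to HoxD, each had 1 probe set called higher (1.93-fold and 2.65-fold) and 2 called lower in WT motor neurons than in cord (3.46-fold and 1.56-fold for Skap2, 10.1-fold and 1.61-fold for Lnpk). The Lnpk probe set with the wider gap had 2 of 3 WT motor neuron arrays above background. No tested probe set of these 5 lists was called between mutant and WT motor neurons in any of the 3 scalings. At an unadjusted p under 0.05, 3 of 17 cofactor, 4 of 27 column factor, 0 of 6 inducer, 5 of 32 regulator and 1 of 10 neighbour probe sets passed there, against 15.2% of all tested probe sets. The 3 cofactor probe sets were all lower in mutant motor neurons. Pknox2 had the smallest adjusted p of them, without overlap of arrays (log2 change -1.39 ± 0.25, limma adjusted p = 0.0618). The others were of Meis2 (-1.85 ± 0.76, adjusted p = 0.288) and Pbx3 (-0.64 ± 0.25, adjusted p = 0.270). The Pbx3 probe set that was higher than in cord had 14488.5, 14574 and 14360.3 in mutant motor neurons against 12948, 11339 and 11638.5 in WT motor neurons (log2 change 0.28 ± 0.13, adjusted p = 0.353).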

How the data were processed

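The 9 samples, each hybridised to a Mouse 430 2.0 array, were 3 each of SOD1-mutant motor neurons, WT motor neurons and WT spinal cord, grouped by the sample descriptions. The authors deposited 1 linear intensity per probe set and array; the sources used here do not name the software behind it. Every array of the deposited intensity table has a mean of 2500 once 2% of probe sets are trimmed at both ends, a common scaling. Of 45101 probe sets, 64 controls were left out. In the platform annotation 34945 probe sets name 1 gene, 932 name several and 9160 name none.

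Before log2, 20.3 was added to every value (their 10th percentile), which understates fold changes of dim probe sets. The 27022 probe sets whose mean of the 3 group means on the log2 scale was above the 40th percentile were tested. Each comparison was fitted on its 6 arrays with limma 3.58.1 in R 4.3.3 (lmFit, then eBayes with its trend option). Tests were two-sided, and p-values were adjusted by Benjamini-Hochberg over all 27022, with a threshold of 0.05. Nothing in the labels says whether arrays came from separate animals, so p-values measure the spread between these samples, which may be technical. The number of arrays limits the precision. Where a group lay below background on all its arrays, the text gives a lower bound of the fold: the brighter group's mean log2 value is set against the dim group's, each dim array taken at its background or its own value, whichever is higher. The highest bacterial probe set read 332. The lists were recomputed under the 2 other scalings after their values were seen.

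Members and lists were chosen with earlier results of these data known. Values on every array were given for called members whose arrays do not overlap (up to 12 in each direction), the 2 brightest per cluster, the brightest above background in motor neurons, and the genes of motor columns and pools. From each list up to 4 called members with the largest change were eligible, or where none passed the 2 brightest, and the text describes some of these. Some genes of the lists are not reported here. On simulated arrays with 200 of 27022 probe sets changed, changes of 1 and 2 on the log2 scale were recovered at 37% and 71% for WT motor neurons against cord, and at 24% and 84% for mutant motor neurons against cord. In the data far more probe sets were called against cord (6494 higher and 11206 lower in WT motor neurons). The adjustment is then less strict, so these shares do not carry over to the comparisons with cord. Alternatives were quantile normalization, median centring, other filters and pseudocounts, raising values to background, a joint fit of the 9 arrays, eBayes without its trend option, array weights, a replicate block and leaving out each array. Python 3.11.15 and matplotlib 3.10.9 were used for tables and figures.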

Additional observations from a re-analysis of the deposited data

How the results depend on the processing

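With 3 arrays per group, dim probe sets carry intervals of several log2 units and values under background have no order. In WT motor neurons against cord, Hox probe sets called higher numbered 10 after quantile normalization, 13 after median centring and 8 with array weights, against 5. In mutant motor neurons against cord they numbered 8 and 11 after those scalings, against 5, and the lower ones 11 after centring, against 18. Centring reversed Hoxb6 (0.423) in WT motor neurons against cord and Hoxb5 (0.027) and Hoxd8 1433638_s_at (0.184) in mutant motor neurons against cord. Between mutant and WT motor neurons, 1 Hox probe set was called higher and 2 lower with all 9 arrays in 1 fit, and 6 and 9 with array weights, against 0 and 0. Those weights put 10.8 on WT motor neuron replicate 3 and 5.47 on mutant replicate 3, against 0.28 to 0.43 on the others, and their estimation stopped before it converged. The number of all probe sets called in that comparison, 60, became 36 after quantile normalization, 20 after centring, 97 with values raised to background, 1184 with all 9 arrays, 3 without the intensity trend and 13777 with array weights. It ran from 6 to 71 when 1 array was left out: 11, 13 and 6 without WT motor neuron replicate 1, 2 or 3, and 46, 71 and 7 without mutant replicate 1, 2 or 3. The cause of these movements was not tested. With the replicate block 443 probe sets were called in that comparison and 0 of the Hox ones. Correlations of same-numbered deviations from the group means were 0.145, 0.171 and 0.002 there. Those of differently numbered ones ran from -0.185 to 0.063. The labels do not say whether the replicate numbers pair the samples, and so few correlations cannot decide it. In both comparisons with cord, Hox counts stayed within 1.5 times those reported when 1 array was left out (4 to 6 higher and 15 to 17 lower in WT motor neurons, 5 higher and 17 to 20 lower in mutant ones), and the replicate block left them as they were.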

Other observations

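Antisense transcripts of the Hox clusters are not Hox genes by the rule used above, but 5 probe sets of 3 of them were on the array. Hoxb5os, read by 1447886_at, had 2067, 3653 and 2642 in mutant motor neurons, 3985, 4344 and 3570 in WT motor neurons, and 2657, 2811 and 2717 in cord. It was 1.45-fold higher in WT motor neurons than in cord (log2 change 0.53 ± 0.12, SE, n = 3 each, limma adjusted p = 0.00404). Hoxb5 itself was not called with the deposited scaling but passed as higher after centring (0.67). Values of the antisense probe sets are given with the deposited scaling alone. Hoxd3os1, read by 1460056_at, had 1738, 1511 and 1395 in mutant motor neurons, 1588, 2866 and 1715 in WT motor neurons, and 5537, 5109 and 5777 in cord. It was lower in WT motor neurons (-1.45 ± 0.21, adjusted p = 3.37e-04), as Hoxd3 was. Between mutant and WT motor neurons neither passed (adjusted p = 0.296 and 0.544). The other 3 probe sets, of Hoxa11os and Hoxd3os1, lay below the filter on dim values. Whether a probe set for an antisense transcript also reads its Hox partner was not tested.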
